A study of Mus musculus with 38 samples.

Results

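The female-only enhancer peaks of mouse liver are H3K27ac peaks of the female list that no male H3K27ac peak touched by 1 bp or more and that overlapped a female H3K4me1 peak which itself touched no male H3K4me1 peak. This rule selected 829 of the 38306 female H3K27ac peaks. Of these members 45 (5.43%) also lay on an H3K4me1 peak of the male list, through another part of the H3K27ac peak. The members were thus chosen by measured values, the presence of H3K27ac and H3K4me1 peaks in each sex, and sex differences in these 2 marks are described here without a test. Of the 4451 female H3K27ac peaks with no male partner, 2234 others lay on an H3K4me1 peak that did not meet the rule and 1388 lay off H3K4me1. The same rule with the sexes exchanged selected 1031 of the 40903 male H3K27ac peaks, which are called male-only enhancer peaks below.

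The series is chromatin immunoprecipitation followed by sequencing (ChIP-seq) of 6 histone marks in whole liver of female and male mice aged 8 weeks, of the outbred CD-1 strain, with no treatment named. The labels list 3 female and 3 male libraries for H3K27ac and for H3K27me3, 3 female and 4 male libraries for H3K4me1 and for H3K4me3, and 2 female and 2 male libraries for H3K36me3 and for H3K9me3. For each mark, all libraries of a sex carried the same peak file, so each list is a single pooled measurement, there is no spread between animals, and no test over animals could be made. Whole liver mixes cell types, and fewer cells of a type and less mark per cell cannot be told apart. Of 5 hepatocyte markers, Alb and Apoa1 could be placed on the genome, and both start sites lay within 1 kb of H3K4me3 and H3K27ac peaks in the lists of both sexes. The placed Kupffer cell markers Clec4f and Cd5l had neither mark within 1 kb in either sex, whereas Stab2 and Clec4g of sinusoidal endothelium had H3K27ac peaks in both sexes. H3K4me3 lay within 1 kb of neither endothelial gene in the female list and of both in the male list. In both sexes the stellate cell gene Hgf had both marks, while Lrat of stellate cells and Epcam of cholangiocytes had H3K4me3 alone. The cholangiocyte gene Spp1 had H3K27ac alone in both sexes, and the lymphocyte genes Cd3d and Cd79a had neither mark. A female-only enhancer peak lay within 100 kb of 0 of 2 placed hepatocyte markers and of 2 of 10 placed markers of the other 5 cell types, the cholangiocyte gene Spp1 and the lymphocyte gene Cd3d. Of all 12656 placed autosomal genes 10.1% had one, so nothing is read from these small counts.

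H3K4me1 lies at enhancers, H3K27ac marks those that are active, and H3K4me3 lies at active promoters. H3K36me3 is laid down over transcribed gene bodies, H3K27me3 is the mark of Polycomb repression and H3K9me3 that of constitutive heterochromatin. In rodents the sexes differ in liver gene expression mainly through the pattern of pituitary growth hormone, which reaches the liver in pulses in males and almost without pause in females. The signal passes through the transcription factor STAT5b, and 2 repressors shape the response: BCL6, which is higher in males and can occupy STAT5 sites, and CUX2, which is expressed mainly in female liver. Many of the genes concerned are cytochrome P450s (Cyp), sulfotransferases (Sult) and flavin-containing monooxygenases (Fmo), which oxidise or conjugate steroids and drugs.

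Sequence inside the peaks was available only as reads of 35 bases from 1 male IgG control library, which sample the genome thinly. Of 8 reads that lay in female-only enhancer peaks with a female H3K27ac call and held the palindromic STAT motif TTCNNNGAA, 7 are printed below with the motif in capitals. They are shown because they are stretches of called members in which that motif could be read. Coordinates are mm9 and the plus strand is printed. Each is named by the gene with the nearest placed start site (neighbour) or by a gene that the GRCm38 gene order puts between the flanking start sites (interval).
chr4:5626594-5626628 (+), Tox interval: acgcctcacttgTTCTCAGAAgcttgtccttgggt
chr9:23153498-23153532 (+), Bmper interval: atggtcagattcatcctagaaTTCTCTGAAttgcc
chr10:7074922-7074956 (+), Gm16254 neighbour: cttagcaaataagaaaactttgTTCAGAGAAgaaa
chr17:47903748-47903782 (+), Tfeb neighbour: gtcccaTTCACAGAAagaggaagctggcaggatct
chr5:51922390-51922424 (+), Ppargc1a neighbour: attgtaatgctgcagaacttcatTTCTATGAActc
chr1:167436072-167436106 (+), Adcy10 interval: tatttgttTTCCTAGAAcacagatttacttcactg
chr7:118050883-118050917 (+), Gm16336 neighbour: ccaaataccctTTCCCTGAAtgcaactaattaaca

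Of the 2753 distinct reads inside the members, 30 held TTCNNNGAA on either strand, a share of 1.09% (exact 95% interval 0.736 to 1.55), against 0.975% (0.943 to 1.01) of reads in all female H3K27ac peaks. These 30 reads marked 29 positions in 28 members, 8 of them with a female H3K27ac call. The BCL6 motif TTCCTNGAA, every match of which also matches the STAT pattern, was in 10 reads or 0.363% (0.174 to 0.667), against 0.191% (0.177 to 0.206) in all female H3K27ac peaks. The CUX2/HNF6 motif ATCAAT was in 24 reads or 0.872% (0.559 to 1.29), against 1.29% (1.26 to 1.33) in all female peaks and 2.76% (2.38 to 3.18) in male-only enhancer peaks. The GC content of the reads was 44.2% in members, 44.8% in all female peaks and 39.5% in male-only enhancer peaks, and its part in the share of this AT-rich motif was not tested. The FOXA motif TGTTTAC was in 11 member reads and the HNF4A motif CAAAGTCCA in 4, with intervals that included the shares of all female peaks. The C/EBP motif TTGCGCAA and the palindromic HNF1 and oestrogen receptor motifs were in 0 of the 2753 reads, which by a limit of 3 counts allows a share of up to 0.109%. In all female peaks their shares were lower than this limit, at 0.0108%, 0.0106% and 0.00216%, so nothing is read from the counts of 0. A match is a description of letters in a read, not a binding site.

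Placed start sites of 14 genes lay inside a member. For 3 of them, which belong to the steroid-metabolising families named above, the RefSeq sequence from 250 bases before to 50 bases after the start site (GRCm38.p6 coordinates) is printed, because a female-only peak lay over the start site. The Cyp3a44 member spanned its whole window, while those at Cyp2c69 and Sult2a5 reached only a short way upstream and left most of the window outside, the HNF4A match in the Cyp2c69 window included. Capitals mark TGTTTAC (FOXA), ATCAAT (CUX2/HNF6) and CAAAGTCCA (HNF4A) on either strand. Of all 32851 promoter windows in the RefSeq table, 3.65% held the FOXA letters, 7.54% the CUX2/HNF6 letters and 0.475% the HNF4A letters.
Cyp3a44, chr5:145805825-145806124 (-): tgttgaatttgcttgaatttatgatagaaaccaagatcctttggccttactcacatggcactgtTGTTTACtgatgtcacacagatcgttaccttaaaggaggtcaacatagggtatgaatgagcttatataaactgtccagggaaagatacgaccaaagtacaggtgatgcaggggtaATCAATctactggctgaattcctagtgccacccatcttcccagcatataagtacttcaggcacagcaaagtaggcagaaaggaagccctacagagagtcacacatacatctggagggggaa
Cyp2c69, chr19:39886720-39887019 (-): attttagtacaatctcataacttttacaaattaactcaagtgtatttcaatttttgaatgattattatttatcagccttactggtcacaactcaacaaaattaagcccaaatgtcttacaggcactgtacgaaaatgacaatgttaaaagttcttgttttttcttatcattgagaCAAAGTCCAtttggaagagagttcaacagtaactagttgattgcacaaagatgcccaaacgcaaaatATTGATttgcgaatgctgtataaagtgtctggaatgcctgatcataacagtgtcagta
Sult2a5, chr7:13623717-13624016 (+): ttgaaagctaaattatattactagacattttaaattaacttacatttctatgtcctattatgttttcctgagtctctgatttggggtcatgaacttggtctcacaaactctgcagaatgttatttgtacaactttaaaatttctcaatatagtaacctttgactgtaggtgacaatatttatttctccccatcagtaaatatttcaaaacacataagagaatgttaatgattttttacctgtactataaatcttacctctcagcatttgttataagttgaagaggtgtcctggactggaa

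The Cyp3a44 window held 1 FOXA and 1 CUX2/HNF6 match, the Cyp2c69 window 1 HNF4A and 1 CUX2/HNF6 match, and the Sult2a5 window no match to any motif searched. None of the 14 windows held TTCNNNGAA, which was found in 8.30% of all windows. The member over the Cyp3a44 start site, chr5:146615418-146617984 in mm9, had 204 tags and a log2 ratio of male over female of -3.35 for H3K27ac in the authors' deposited table. A negative ratio means more signal in females, here and throughout. The member over Cyp2c69, chr19:39959955-39961317, had 86 tags and a ratio of -2.73, and that over Sult2a5, chr7:14209304-14209937, had 31 tags and a ratio of -3.15. All 3 members lay on an H3K27me3 island of the male list, with H3K27me3 ratios of 1.94, 2.32 and 2.46.

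The members were small peaks. Their median width was 1047 bp, against 2031 bp for all female H3K27ac peaks, and they held a median of 50 tags (24 to 701), against 158. The authors' fold enrichment over background had a median of 4.98 in members and 7.16 in all female peaks. By the authors' score 40 members fell in the better-scoring 50% of the list, and the false discovery rate deposited for the peak was at or under 5% for 190 members. Most lay near a male peak without touching it: the median gap to the nearest male H3K27ac peak was 4601 bp, 155 members (18.7%) were within 1 kb of one and 560 (67.6%) within 10 kb. The closest members just inside the rule were chr11:50005248-50006564, chr5:8985167-8986339 and chr19:29546812-29547652, which lay 6, 15 and 16 bp from a male H3K27ac peak and had H3K27ac ratios of -0.82, -0.58 and -0.58. Just outside it were chr11:95547420-95548253, chr7:125261062-125262459 and chr1:133388003-133391094, which overlapped a male H3K27ac peak by 8, 21 and 27 bp and had ratios of -0.63, -0.62 and -0.92. Through H3K4me1 the closest exclusions were chr19:7871381-7872639, chr5:128101899-128107311 and chr18:38555768-38556820, where the H3K4me1 peak overlapped a male one by 5, 22 and 25 bp and the H3K27ac ratios were -1.92, -1.66 and -0.64. The values on either side of the rule overlapped.

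Absence from the male list was therefore a wider criterion than the authors' sex-bias call, which requires a log2 ratio of 1 or more in either direction and a p below 0.001. By that call 253 members (30.5%, exact 95% interval 27.4 to 33.8) were female for H3K27ac, where the list as a whole had 3.02%, and nothing is read from this since the rule used that contrast. The female H3K4me1 call was given to the overlapping H3K4me1 peak of 170 members (20.5%), against 3.88% of the whole female H3K4me1 list, and 108 members (13.0%) were called in both marks. The H3K27ac ratio of members ran from -6.66 to 0.30 with a median of -0.87 (quartiles -1.23 and -0.64), and 824 of 829 were below 0. The 5 members above 0 included chr10:88924033-88927362 and its neighbour chr10:88927525-88930372, 239 and 163 tags, within 100 kb of the start site of Nr1h4, the bile acid receptor FXR. The H3K4me1 ratio had a median of -0.62 and ran from -3.67 to 1. Across the 829 members the ratios of both marks correlated with a Pearson r of 0.49 and a Spearman rho of 0.40, a description over peaks that share their libraries.

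**Figure D1:**
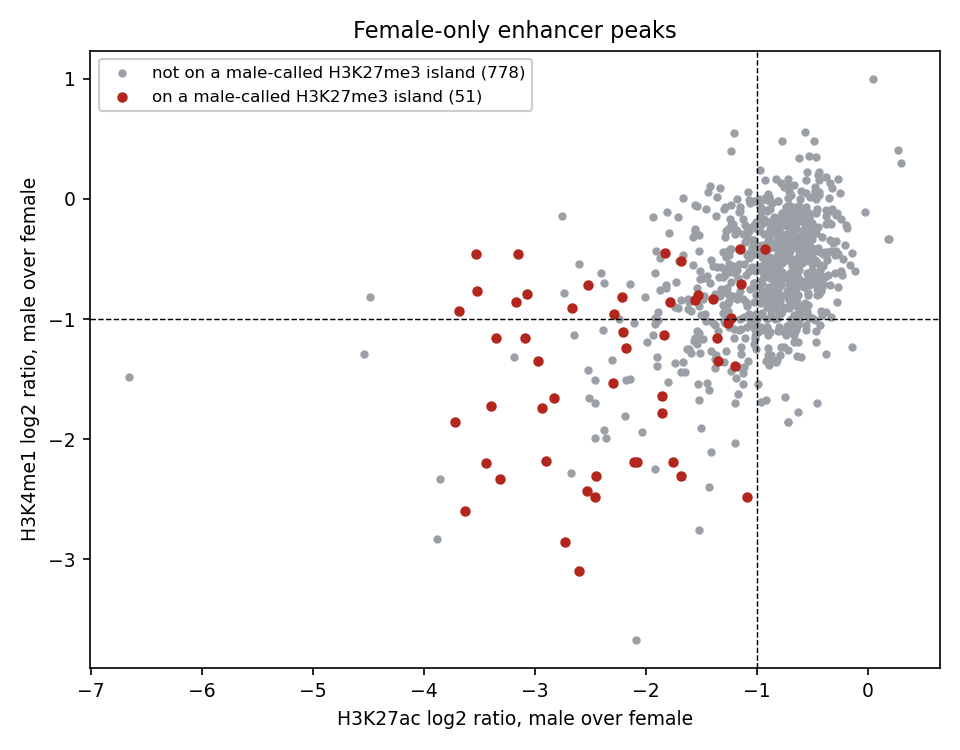
Each point is 1 of the 829 female-only enhancer peaks, with its deposited log2 ratio of male over female for H3K27ac (x axis) and for the overlapping H3K4me1 peak (y axis). Dashed lines mark -1 on each axis. The 51 red points lie on an H3K27me3 island called male-biased, and 48 of them have a female H3K27ac call.

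The members with the best H3K27ac scores were led by chr7:31707046-31711431, which had 373 tags, a fold enrichment of 17.1, an H3K27ac ratio of -2.68 and an H3K4me1 ratio of -2.28. It lay 17618 bp from the start site of Hamp, which encodes the iron-regulating hormone hepcidin, in an interval that also holds Hamp2 and Mag, and only 43 bp from a male H3K27ac peak. A female-called H3K4me3 peak with a ratio of -2.68 overlapped it. The member chr5:146401594-146405717 had 522 tags and a ratio of -4.49, 55994 bp from Cyp3a41b, a steroid-oxidising P450. The member chr8:91894747-91897945 had 320 tags and a ratio of -3.72 in an interval that holds Tox3, which encodes an HMG-box protein. The member chr9:87018211-87021554 had 236 tags and a ratio of -1.38, 17588 bp from Mrap2, an accessory protein of melanocortin receptors. The member chr11:19614380-19616395, in an interval holding Spred2, an inhibitor of Ras signalling, had 211 tags and a ratio of -2.14. On chromosome 18, where no gene was assigned, chr18:79228032-79233306 had 457 tags and a ratio of -2.24 and chr18:12414352-12417584 had 406 tags and a ratio of -1.87. The lowest ratio of all members, -6.66 with 91 tags, belonged to chr11:22286870-22288561 in an interval holding Ehbp1, and its H3K4me1 ratio was -1.48.

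H3K27me3, which the rule did not use, was found under the members more in the male list than in the female list. An H3K27me3 island of the female list overlapped 83 members (10%, 8.05 to 12.3), and one of the male list overlapped 144 (17.4%, 14.9 to 20.1). The other female-only H3K27ac peaks on H3K4me1, which were of similar width (median 1079 bp), had 7.56% on female and 11.7% on male islands. Those off H3K4me1 (median 922 bp) had 17.4% on female and 18.2% on male islands. The male share was thus not particular to the members, while the difference between the lists was larger in them. Among all female H3K27ac peaks the shares were 6.96% in the female list and 6.94% in the male list, although those peaks were wider. Among male-only enhancer peaks they were 7.66% in the female list and 4.36% in the male list, the other way round from the members. Islands called male-biased by the authors lay under 51 members (6.15%, 4.61 to 8.01), against 0.501% of all female H3K27ac peaks, 2.19% of the other female-only peaks on H3K4me1 and 0.0970% of male-only enhancer peaks. Of the female-only peaks off H3K4me1, 0.865% lay on such an island. An island called female-biased lay under 0 of 829 members, which by a limit of 3 counts allows a share of up to 0.362%. The female list held only 8 such islands and 1 of the 38306 female H3K27ac peaks lay on one (0.00261%), so nothing is read from this count. In the 40 members of the better-scoring 50% of the female H3K27ac list, female islands lay under 0 and male ones under 25%. The 51 members lay on 29 distinct islands, up to 4 on the same island, so they are not independent. These 29 were 18.1% of the 160 male-called islands, which made up 0.798% of the male H3K27me3 list, and 28 of them had no female island over them. The intervals of shares, here and elsewhere, are exact (Clopper-Pearson) and hold counting error alone.

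The H3K27me3 ratio, available for the 172 members on an island of either sex, had a median of 0.15 and ran from -0.52 to 3.22, and it was above 0 in 123 (71.5%). In the 10 better-scoring members with such a ratio the median was 1.66. The median was -0.03 over all female H3K27ac peaks on such islands, with 45.1% above 0, and -0.12 over male-only enhancer peaks, with 31.6% above 0. It was 0.08 over the other female-only peaks on H3K4me1, with 59.9% above 0, and -0.02 over those off H3K4me1, with 47.5%. Within the members it differed with the H3K27ac call. Male-called islands lay under 48 of 253 members called female for H3K27ac (19%, 14.3 to 24.4), and under 3 of 576 members that were not (0.521%, 0.108 to 1.51). The called members were wider (median 1294 bp, against 975 bp) and held more tags (median 68, against 46), and the part of these differences in the share was not tested. Over the 172 members the H3K27ac and H3K27me3 ratios correlated with a Pearson r of -0.66 and a Spearman rho of -0.68. Members on the same island share their H3K27me3 value, and without the 12 of the largest group the values over 160 members were -0.67 and -0.64.

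**Figure D2:**
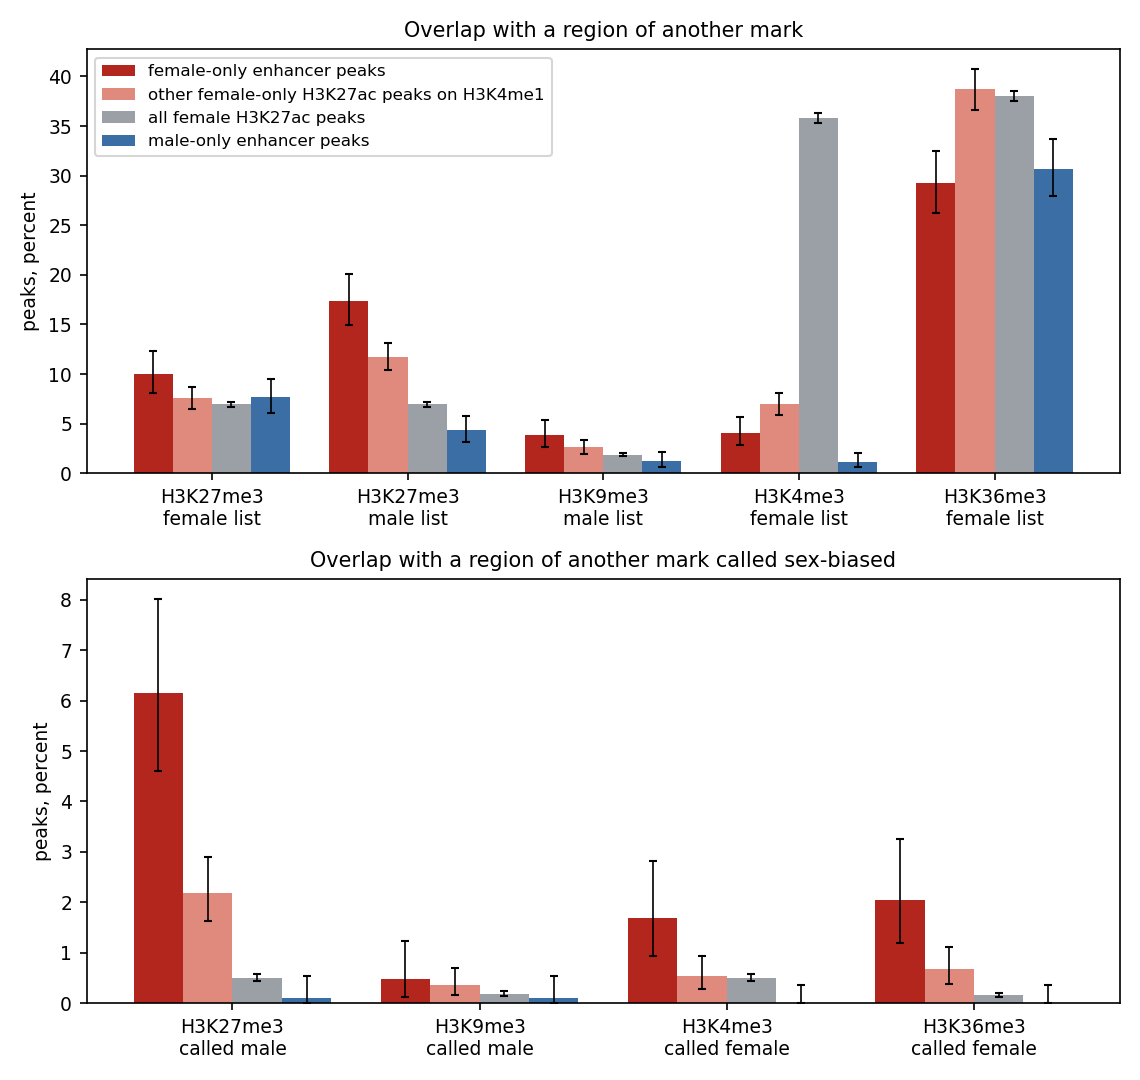
Percent of peaks that overlap by 1 bp or more a region of another mark (upper panel) or a region of that mark called sex-biased (lower panel), with exact 95% intervals for counting error, for 829 female-only enhancer peaks, 2234 other female-only H3K27ac peaks on H3K4me1, 38306 female H3K27ac peaks and 1031 male-only enhancer peaks. Male H3K27me3 islands lie under 17.4% of the female-only enhancer peaks and 6.94% of all female H3K27ac peaks. For the 1388 female-only H3K27ac peaks off H3K4me1, which are not drawn, that share is 18.2%.

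H3K4me3 was rare at members. A female H3K4me3 peak overlapped 34 members (4.10%, 2.86 to 5.68), against 35.8% of all female H3K27ac peaks, and a male one overlapped 10 (1.21%). The low share was not particular to the members. It was 6.94% in the other female-only peaks on H3K4me1 and 2.45% in those off H3K4me1. A male H3K4me3 peak overlapped 2.72% of male-only enhancer peaks. In the 40 members of the better-scoring 50% of the female H3K27ac list the female share was 17.5%. Likewise 19 of the 796 members outside chromosome 18 (2.39%) lay within 1 kb of a placed start site, against 15.9% of all female peaks. That share was 2.63% in the other female-only peaks on H3K4me1, 2.09% in those off it and 1.61% in male-only enhancer peaks. Where H3K4me3 was present it was mostly higher in females: the ratio had a median of -0.84 over 38 members, against 0.01 over all female peaks with H3K4me3. Female-called H3K4me3 peaks, 1.25% of the female H3K4me3 list, overlapped 14 members (1.69%), where 0.509% of all female H3K27ac peaks had one. The lowest H3K4me3 ratio was -4.49 at chr15:60750347-60752941 in an interval holding A1bg, which encodes a plasma glycoprotein. Ratios of -3.77 at chr7:27091997-27094263 in the Cyp2b interval and -3.24 at the Cyp2c69 start site followed. The member chr7:6133927-6135959, 12734 bp from Galp, which encodes a galanin-like peptide, had an H3K4me3 ratio of -3.00 with an H3K27ac ratio of -1.17.

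A female H3K36me3 island lay over 243 members (29.3%, 26.2 to 32.5), against 38% of all female H3K27ac peaks, which were wider. The median H3K36me3 ratio of 271 members was -0.02. The share with a female island was 38.7% in the other female-only peaks on H3K4me1 and 32.7% in those off it. In the 40 better-scoring members the share was 20%. The median was 0.07 over the 9 of them with an H3K36me3 ratio. Its 95% interval, taken from the ranked ratios of these members, was -1.79 to 0.25. Female-called H3K36me3 islands, 0.451% of the female H3K36me3 list, covered 17 members (2.05%, 1.20 to 3.26) on 11 islands, where 0.157% of all female peaks had one. That share was 0.671% in the other female-only peaks on H3K4me1 and 0.288% in those off it. A single group of neighbouring members on chromosome 7, described below, held 10 of the 17, so they are not independent. Of those 17 members, 14 also lay on a male-called H3K27me3 island. The lowest H3K36me3 ratio was in the Cyp2b interval (-2.52 at chr7:26873539-26874285), and the A1bg interval member had a ratio of -1.79. Ratios were -1.17 at chr11:89852319-89853842, 10367 bp from Pctp, a phosphatidylcholine transfer protein, and -1.13 at chr15:91002482-91003413 in the interval of Abcd2, a peroxisomal fatty acid transporter. An H3K9me3 island of either sex lay over 35 members (4.22%), a female one over 9 (1.09%) and a male one over 32 (3.86%), against 1.02% and 1.88% of all female H3K27ac peaks on female and male islands. These shares were 0.985% and 2.60% in the other female-only peaks on H3K4me1. In female-only peaks off H3K4me1 they were 3.03% and 4.11%, so the male share was not particular to the members. An H3K9me3 island lay over 0 of the 40 better-scoring members. Its ratio had a median of 0.37 in members and 0.32 in all female peaks, and 4 members (0.483%) lay on a male-called H3K9me3 island, a call given to 3.42% of the male H3K9me3 list, where 0.188% of all female peaks did.

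Joining members less than 100 kb apart gave 677 groups, of which 581 held 1 member, 72 held 2 and 24 held 3 or more. A second member lay within 100 kb of 248 members (29.9%), and of the male-only enhancer peaks 387 (37.5%) had another. The largest group of members held 21 and the largest of male-only peaks 7. Male-called H3K27me3 islands lay under 38 of the 104 members in groups of 3 or more (36.5%, 27.3 to 46.6), 6 of the 144 in groups of 2 (4.17%) and 7 of the 581 alone (1.20%). They were found in 8 of the 24 larger groups, and 12 of the 24 held no member with a female H3K27ac call. Among called members with an H3K27me3 value the median ratio was 1.94 in groups of 3 or more (n = 41), 1.97 in groups of 2 (n = 11) and 0.13 in members alone (n = 29). Among members without the call it was 0.31 (n = 8), -0.02 (n = 17) and 0.03 (n = 66).

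**Figure D3:**
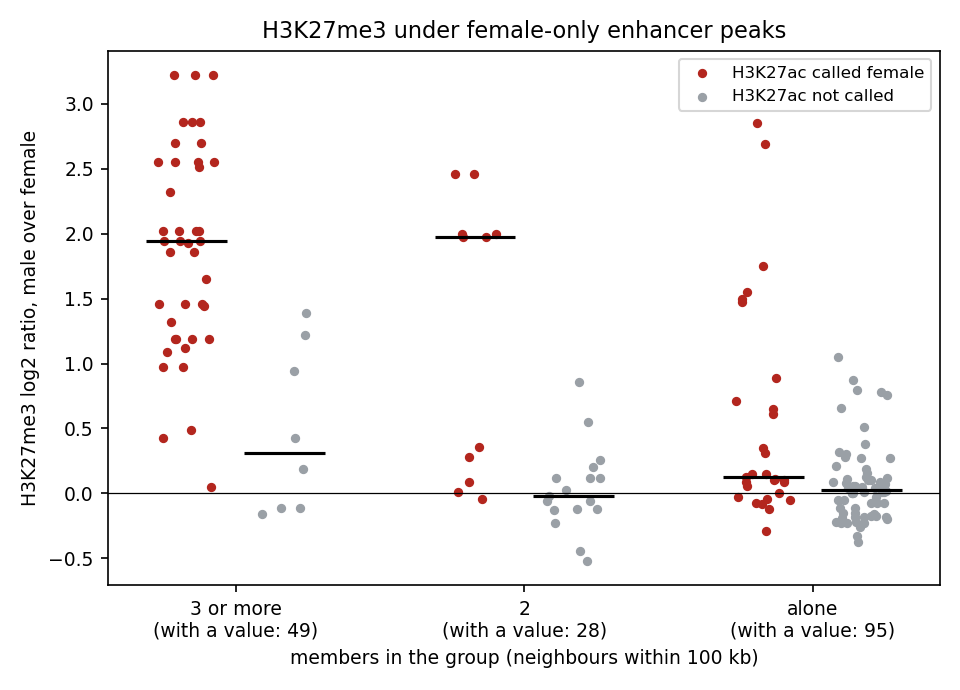
Deposited log2 ratio of male over female H3K27me3 (y axis) for the 172 female-only enhancer peaks on an H3K27me3 island, by the number of members in the group (x axis). Red points have a female H3K27ac call, grey points do not, and black lines are medians, which are 1.94 for called and 0.31 for uncalled members of groups of 3 or more.

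The largest group, chr7:26772076-27138840, lay across the Cyp2b and Cyp2a genes, P450s that hydroxylate steroids and foreign compounds. It began beyond the start site of Cyp2b10, held that of Cyp2b13, and spanned an interval with Cyp2b9 and Cyp2a4. In it the female list had 37 H3K27ac peaks and the male list 6. Of the 21 members 18 had the female H3K27ac call, 16 the female H3K4me1 call, and the H3K27ac ratios ran from -3.86 to -0.67 with a median of -2.18. The member nearest the Cyp2b13 start site, 2160 bp away at chr7:26848675-26849241, had 28 tags, an H3K27ac ratio of -3.86 and an H3K4me3 ratio of -3.16. Its deposited false discovery rate was 44.8%, and it held no IgG read. Female H3K27me3 islands covered 0 kb of the group and male ones 142 kb, and 12 members lay on male-called islands. Female H3K36me3 islands covered 75.4 kb and male ones 23.0 kb, and 10 members lay on female-called islands. IgG density relative to the autosomal mean had a median of 0.522 in these 21 members, against 0.833 in all members. These genes have near-identical copies, among which aligned reads may be divided or lost.

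The group of 7 on chromosome 5, chr5:146401594-146617984, reached from beyond Cyp3a41b to the start site of Cyp3a44, with Cyp3a41a between them. All 7 members had the female H3K27ac call, with ratios from -4.54 to -2.83. The female list had 13 H3K27ac peaks there and the male list 0. All 7 lay on male H3K27me3 islands, 5 of them called male. Female H3K27me3 islands covered 12 kb of the group and male ones 77.9 kb. The median relative IgG density was 1.43. The group of 6 on chromosome 19, chr19:39882737-39986105, lay between Cyp2c68 and Cyp2c37 and held Cyp2c69 and the interval of Cyp2c40, P450s of fatty acid and steroid oxidation. Its H3K27ac ratios ran from -2.74 to -1.83, and 3 of the 6 lay on male-called H3K27me3 islands. Female H3K36me3 islands covered 32.8 kb of it and male ones 0 kb. The median relative IgG density of these 6 members was 0.355, against 0.833 in all members, and its part in these values was not tested.

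**Figure D4:**
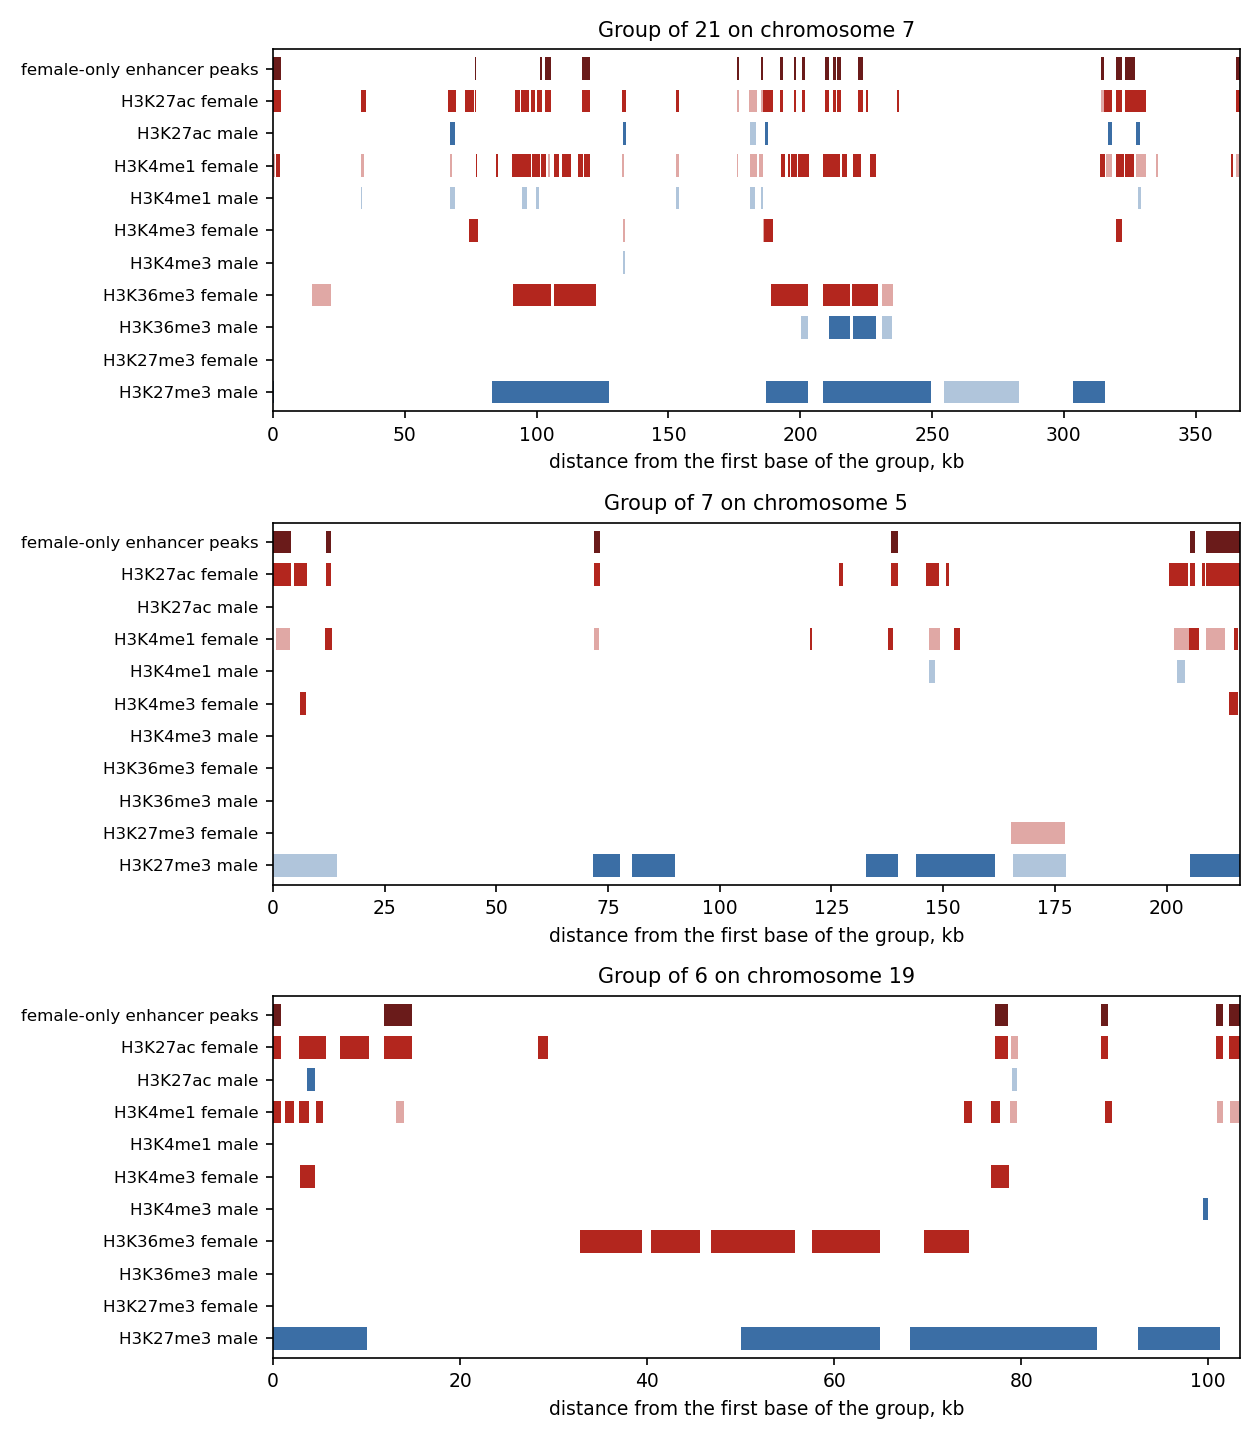
Regions of each list in the 3 largest groups of female-only enhancer peaks, by distance in kb from the first base of the group (x axis). Dark bars are regions called sex-biased by the authors (all members are drawn dark), pale bars are not called. On chromosome 7 the female list has 37 and the male list 6 H3K27ac peaks, and H3K27me3 islands occur in the male list alone.

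The group of 5 in the Tox3 interval, chr8:91818537-91981212, lay wholly on male-called H3K27me3 islands, with H3K27me3 ratios of 1.19 to 1.22 and H3K27ac ratios from -3.72 to -0.93. Of 5 groups with 4 members, 3 had male-called H3K27me3. The group in the Sult3a1 interval, chr10:33570051-33581461, had H3K27ac ratios from -3.69 to -3.17, no male H3K27ac peak, and an H3K27me3 ratio of 2.02 at all 4 members. The group chr19:8293023-8340631 spanned adjoining intervals that hold the anion transporters Slc22a27, Slc22a28, Slc22a29 and Slc22a30, and 2 of its members lay in the interval with Slc22a30. It had H3K27ac ratios from -2.97 to -1.68 and H3K27me3 ratios of 1.86 and 2.70. In the interval of Bmper, a regulator of bone morphogenetic proteins, 4 members had H3K27ac ratios from -2.18 to -1.51, and 3 of them an H3K27me3 ratio of 1.46. The other 2 groups of 4, chr4:132705655-132734065 near Wasf2 and chr19:32246446-32377598 in the interval of Asah2 and Sgms1, enzymes of sphingolipid metabolism, held no called member and no H3K27me3 island. Their H3K27ac ratios ran from -0.73 to -0.34 and from -1.21 to -0.55.

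A list of 66 genes known as female-biased in mouse liver was set against the members. A start site could be placed for 28 of them, and 18 (64.3%) had a member within 100 kb, where 1276 of all 12656 placed autosomal genes (10.1%) had one. Only 2 of the 28 (7.14%) had a male-only enhancer peak within that distance, where 8.38% of all placed genes did. Of 26 placed genes known as male-biased, 3 (11.5%) had a member and 18 (69.2%) a male-only enhancer peak. The genes of a list lie partly in the same clusters and share members, so the counts are not independent. The list was written from knowledge of the field, which includes work on such data. H3K4me3 lay within 1 kb of 21 of the 28 female-biased start sites in the female list and of 11 in the male list. For 14 of the 18 genes at least 1 member had the female H3K27ac call. No share over all placed genes was taken for the H3K4me3 counts or for this one, so they are descriptions.

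Among the P450 genes, Cyp2b13 had 7 members within 100 kb, Cyp2c69 had 6, Cyp3a44 had 4, Cyp2c37 and Cyp2b10 had 3 each, Cyp3a41b and Cyp2c68 had 2 each, and every one of these was called female. Cyp2a22 had 2 and Cyp2c50 had 1, with H3K27ac ratios from -1.13 to -0.67 and no call. Among the sulfotransferases, which add sulfate to steroids and other acceptors, Sult3a2 had 4 called members with ratios down to -3.69, Sult2a5 had 2 down to -3.53, and Sult2a3 had 1 at -1.20. Fmo2 had 1 at -2.22. Hao2, a peroxisomal hydroxyacid oxidase, and Hsd3b1, a steroid dehydrogenase, shared 1 at -1.53. Igfbp1, which binds insulin-like growth factors, had 2 at -1.30 and -1.15. Prlr, the prolactin receptor, had 2 uncalled members, the nearer 1056 bp from its start site, with ratios of -0.65 and -0.40, and Trim24, a transcriptional cofactor, had 1 at -0.95. The 10 placed genes of the list without a member were Cyp3a16, Sult1e1, Fmo4, Slc22a26, Acot4, Lifr, Lepr, Rarres1, Vldlr and Cd36.

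Of the 38 listed genes with no placed start site, 23 belonged to an interval that held a member, and of the 25 male-biased genes with none, 4 did. The intervals differ in length and can hold several genes, and no share over all genes was taken, so these counts are descriptions. The 2 members in the A1bg interval had H3K27ac ratios of -2.45 and -1.68, both on a male-called H3K27me3 island. The interval of Cux2, the female-biased repressor described above, held a called member at chr5:122367030-122368373 with 96 tags, an H3K27ac ratio of -1.35, and an H3K27me3 ratio of 1.75. A further member at chr5:122504408-122505223, over the start site of Gm52786, had ratios of -1.14 and 0.87. Tox, an HMG-box gene, lies in an interval that held chr4:5625333-5626921, with 154 tags and a ratio of -2.51, but that interval is long and also holds Cyp7a1, the rate-limiting enzyme of bile acid synthesis.

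Of 14 placed genes of the growth hormone pathway 2 (14.3%) had a member within 100 kb, Prlr and Bcl6, where 10.1% of all placed genes had one. The member by Bcl6, the male-biased repressor, lay 21896 bp from its start site with an H3K27ac ratio of -1.07, a female call, and an H3K4me1 ratio of -0.01. Of 14 placed liver transcription factors, Nr1h4 and Ppara, the fatty acid receptor, had a member, and none of these 3 was called. All 14 genes of either list had H3K4me3 and H3K27ac within 1 kb of a start site in both sexes. No share over all placed genes was taken for this count. The other male-biased genes with a member were Slco1a1, an organic anion transporter, and Nat8, an acetyltransferase, at -1.06 and -1.01, and they had 5 and 3 male-only enhancer peaks.

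**Figure D5:**
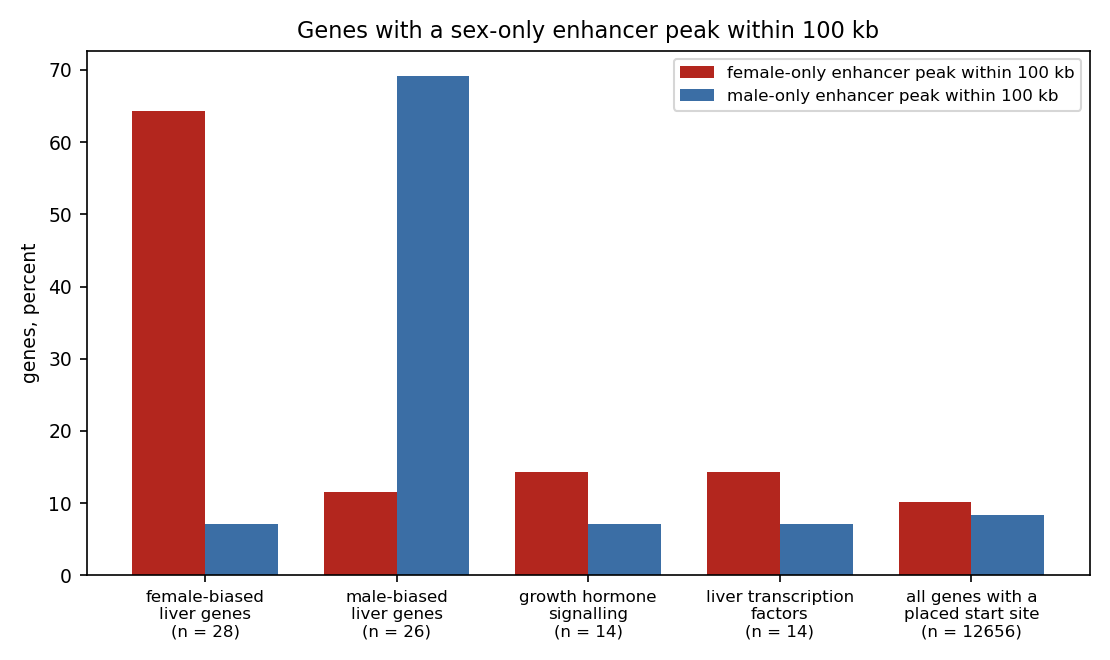
Percent of genes with a placed start site (y axis) that have a female-only (red) or a male-only (blue) enhancer peak within 100 kb, for the gene lists and for all placed genes (x axis, with the number placed). The 28 female-biased genes stand at 64.3% for female-only and 7.14% for male-only peaks, and the 26 male-biased genes at 11.5% and 69.2%.

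Seen from the peaks, 36 of the 796 members outside chromosome 18 (4.52%, 3.19 to 6.21) lay within 100 kb of a placed female-biased start site. The share was 3.06% (2.21 to 4.13) in female-only H3K27ac peaks off H3K4me1 and 1.94% (1.40 to 2.61) in the other female-only peaks on H3K4me1. It was 0.706% in all female H3K27ac peaks and 0.101% in male-only enhancer peaks, so a raised share was not particular to the members. For male-biased start sites the shares were 0.377% of members, 0.682% of all female peaks and 3.82% of male-only enhancer peaks. Members lay on all 19 autosomes. Chromosome 7 had the most, 76 or 3.31% of its female H3K27ac peaks. The relative IgG density, a measure of how many reads a region yields without enrichment, had a median of 0.833 in members, 1.06 in all female H3K27ac peaks and 1.22 in male-only enhancer peaks, and 78 members held no IgG read. Its part in the results was not tested. It was 0.934 in the 51 members on male-called H3K27me3 islands and 0.831 in the other 778.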

How the data were processed

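Per the submitters' processing notes, reads were aligned with Bowtie to mm9 and SICER 1.1 was run. The H3K27ac, H3K4me3 and H3K4me1 lists have MACS column names, with no version stated. Tag and read counts are deposited raw. In the H3K27ac lists many tags and scores were deposited with 3 significant digits, so those counts and ranks are approximate. Each peak has, per the file headers, a score, a fold enrichment or fold ratio over control, and a false discovery rate in percent, all the authors' own. The deposited log2 ratio (male over female), p-value and sex call are also theirs, with no normalisation stated in the sources used here. Each of the 12 lists is pooled, with 1526754 to 20459697 reads in peaks, and the p-values do not measure variation between animals.

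Members were found by interval overlap (Python 3.11.15, numpy 2.4.6, pandas 2.3.3, scipy 1.17.1), tested on simulated lists. Start sites were placed on mm9 by matching the sequences of IgG reads (11201113 reads, 1 male library) to RefSeq promoter windows of GRCm38.p6 (at least 24 bases, at most 2 mismatches), keeping matches in GRCm38 gene order. This placed 12940 of 27025 genes (47.9%), none on chromosome 18. Unplaced genes are named only by the interval they belong to. The members, gene lists and motifs were chosen with earlier results of these data known. Named regions come from the 10 best by score, the 10 lowest mean ratios among members called in both marks, up to 10 per mark on sex-called regions, the largest groups, and the members at the edge of the rule. Named genes are those nearest to such regions and the listed genes with a member within 100 kb. Alternatives were another gap, overlap, score range, list length, chromosome, centring, distance and IgG counting. Some items are not reported here.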

Additional observations from a re-analysis of the deposited data

How the results depend on the processing

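Values were recomputed under 9 alternatives and 2 added after seeing the data, the summit base alone and the lists without the largest group. Of 80 recomputed values 61 stayed within the 95% interval of the value reported, or within 1.5 times for the count of members. In the better-scoring 50% of the female H3K27ac list 40 members remained. There the female call held for 95% (H3K27ac) and 55% (H3K4me1), male H3K27me3 islands lay under 25%, female ones under 0, H3K9me3 islands under 0, female H3K36me3 islands under 20% and female H3K4me3 peaks under 17.5%. The median ratio was 1.66 for H3K27me3, over 10 members with a value, and 0.07 for H3K36me3, over 9. A female-biased gene was the nearest start site for 13.5%, and the IgG density was 1.03. With no male peak within 1 kb, the shares were 36.6% (H3K27ac call), 23.9% (H3K4me1 call), 21% (male H3K27me3) and 25.8% (female H3K36me3). Centring the ratios on shared peaks gave an H3K4me1 call of 23.9%. Joining within 50 kb gave 23.5% with a neighbour, against 29.9%. A limit of 50 kb gave 2.26% with a female-biased gene as nearest start site, against 3.77%. The other alternatives moved no value outside its interval. The cause was not tested, beyond the smaller number of members. No paired analysis was possible because the libraries of a mark and sex were deposited as the same pooled list, which also means that no replicate could be left out. The median member held 50 tags, and the H3K27ac lists held 12837285 reads in female and 19253391 reads in male peaks. For H3K4me1, which the rule also used, the order was the other way, with 20459697 reads in female and 12562838 reads in male peaks. The part of depth in the results was not tested.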
